A study of Talpa occidentalis with 24 samples.

Results

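The regions described here are distal enhancer regions of the Iberian mole, Talpa occidentalis, that were in an active chromatin state in both of its testicular gonad tissues and in none of their bases in the ovarian tissue. Females of this species carry ovotestes, gonads in which an ovarian portion adjoins a testicular portion that lacks germ cells, while males carry testes. From the 3 deposited mole segmentations, active enhancer segments of at least 400 bp that lay more than 2 kb from every segment in the promoter or bivalent promoter state in any of the tissues were taken and merged wherever they shared a base. Scaffolds 15 and 18 were left out. Of 62589 merged regions, 9276 were kept, which is 14.8% of all regions. These 9276 regions are called the shared testicular regions below. The rule that chose them used the active states of all 3 tissues, so their activity pattern is a description and not a finding, and it was given no test.

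The study profiled 4 histone marks by chromatin immunoprecipitation with sequencing (ChIP-seq) in wild-type moles at postnatal day 7. The 3 groups were the ovarian portion of the ovotestis, its testicular portion, and the testis of males, each with 8 libraries (2 replicates of each mark). The deposited mole tables name 1 of 7 chromatin states for every 200 bp bin, with 1 table per tissue. Each tissue therefore has no replicate at this level, no test between tissues could be made, and the depth behind a state call is unknown. The spread is shown as the range over 16 scaffolds of at least 1 Mb that held at least 20 distal regions. Intervals in brackets are 95% Wilson intervals, which cover counting only, since neighbouring regions are not independent. How many animals were pooled in a library is not given in the sources used here.

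Enhancers are stretches of DNA that raise the transcription of genes, often from a long distance. Nucleosomes at enhancers carry H3K4me1, and active enhancers carry H3K27ac in addition, whereas enhancers with H3K4me1 alone are called poised or primed. H3K4me3 marks promoters and H3K27me3 marks chromatin repressed by Polycomb complexes. In the mammalian gonad, Sertoli cells of the testis and granulosa cells of the ovary arise from a common supporting lineage, and enhancers that differ between them include well-known switches of sex determination. The state names below are those of the deposited tables. Their definition from the marks is not stated in the sources used, so whether the poised state may include H3K27me3 is not known. Gene models came only for a different assembly, talOcc3, so genes at these regions were not named, the tissues were not checked against cell type markers, and no sequence is printed. In whole tissue, fewer cells with an active enhancer and less of the mark per cell cannot be told apart.

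By the rule, both testicular tissues had active bases in every shared testicular region. Regions active in all 3 tissues had a median length of 2400 bp, and the remaining kinds had medians from 800 to 1400 bp. The shared testicular regions lay between these, with a median of 1600 bp, a middle span from 1200 to 2400 bp and a longest region of 11000 bp. Together they covered 17.7 Mb. The median region held 1200 active bp in the testicular portion and 1400 active bp in the testis, of which 1000 bp were active in both. A segment that met the length and distance limits by itself was present in both tissues for 8625 of the 9276 regions (93% [92.4 to 93.5]). A further 341 had such a segment in the testicular portion alone and 310 in the testis alone. In 448 regions (4.83% [4.41 to 5.28]) the activity in one of the tissues was a single 200 bp bin, so those rest on 1 call in that tissue. By contrast, 5014 regions (54.1% [53.0 to 55.1]) had at least 1000 bp active in both. By the rule, no base of these regions could be in the promoter state in any of the tissues.

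The extent of activity was not the same in both tissues. Of all bases in the shared testicular regions, 59.1% were active in both tissues, 25.4% in the testis alone and 15.5% in the testicular portion alone. In the 18946 regions active in all 3 tissues, the corresponding share active in both testicular tissues was 69.8% of the bases active in either. Those regions were longer, with a median of 2400 bp against 1600 bp, and the part of length in this difference was not tested. The testis had more active bases than the testicular portion in 4586 of the shared testicular regions (49.4% [48.4 to 50.5]), fewer in 3395 (36.6% [35.6 to 37.6]) and equally many in 1295. Summed over regions, active bases in the testis were 1.13 times those in the testicular portion, with ratios from 1.05 to 1.26 over the 16 scaffolds and above 1 on 16 of 16. In regions active in all 3 tissues the ratio was 1.02, with a range of 0.971 to 1.09, and it exceeded 1 on 13 of 16 scaffolds. The active states also covered more of the genome in the testis (6.04%) than in the testicular portion (5.71%) or the ovarian portion (4.35%). The part of this unequal coverage in the widths was not tested. In 835 regions (9.0% [8.44 to 9.60]) the active bases began and ended at the same bins in both tissues.

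At the limits of the rule, regions just inside and just outside had poised shares between 92.8% and 97.3% in the ovarian portion. The 127 regions of exactly 400 bp were poised over 93.3% of their bases. The 33 regions of 200 bp that met every other condition were poised over 93.9%. The 54 regions that lay 2200 bp from the nearest promoter or bivalent promoter segment were poised over 97.3%, and the 58 regions at exactly 2000 bp, just outside the limit, over 92.8%.

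In the ovarian portion, the shared testicular regions were mostly in the poised enhancer state. The rule left only the poised, undefined, Polycomb and gap states possible there. Of their bases, 91.7% were poised, 7.32% undefined, 0.989% in the Polycomb repression state and 0.0272% in the gap state. Over all bases of the ovarian portion in one of those 4 states, 24.4% were poised, 63.2% undefined, 5.26% Polycomb and 7.08% gap. The poised share of the shared testicular regions lay between 89.6% and 94.0% on the 16 scaffolds. All bases of a region were poised in 7186 regions (77.5% [76.6 to 78.3]), and 8998 (97% [96.6 to 97.3]) had at least 1 poised bin.

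**Figure D1:**
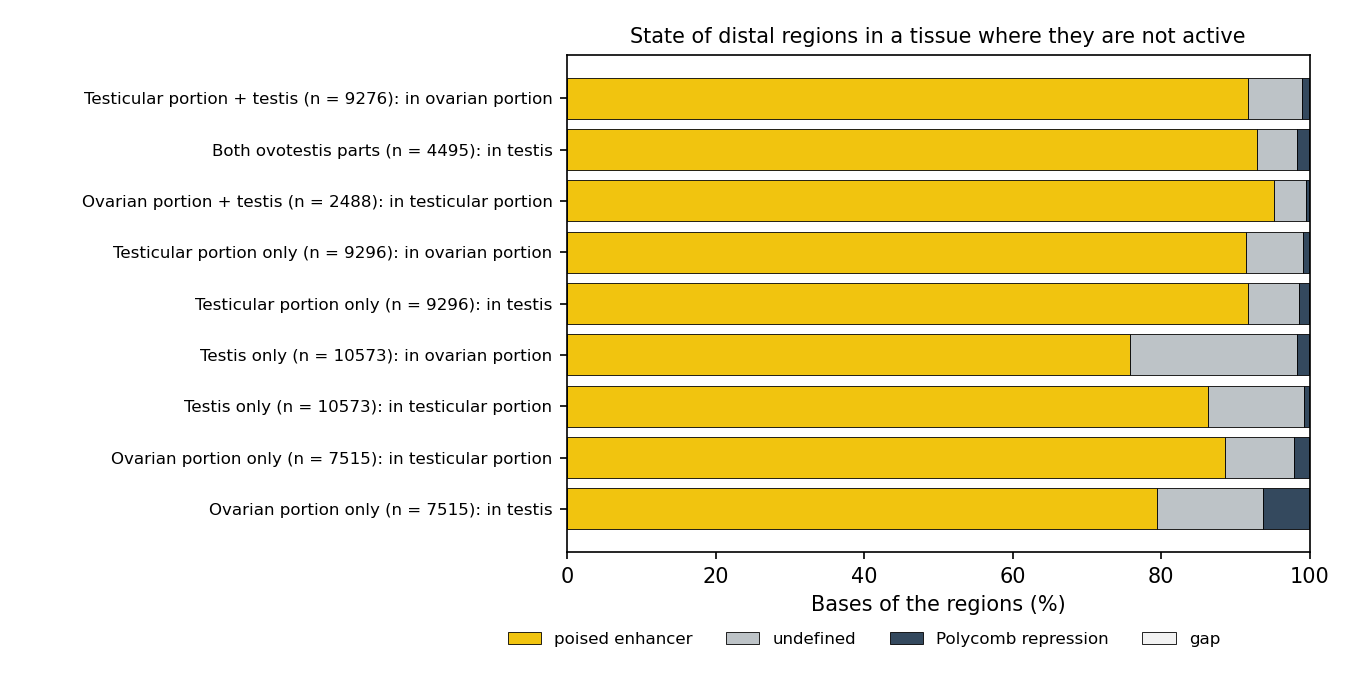
Horizontal bars give the percent of bases in each chromatin state, for distal regions grouped by the tissues where they were active, in a tissue where they were not active. The bar of the shared testicular regions in the ovarian portion is 91.7% poised, against 75.8% for regions of the testis only in the same tissue.

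This high poised share was also found for other kinds of region in a tissue where they were silent. Regions active in both parts of the ovotestis were poised over 92.9% of their bases in the testis, with a range of 89.3% to 96.6% over scaffolds. Regions active in the ovarian portion and the testis were poised over 95.2% in the testicular portion, with a range of 90.9% to 97.1%. The shared testicular regions exceeded the first of these on 6 of 16 scaffolds and the second on 2 of 16. Regions of the testicular portion only were poised over 91.4% in the ovarian portion, and the shared testicular regions were higher on 9 of 16 scaffolds. The 91.7% of the shared testicular regions was therefore below the shares of both kinds that were likewise silent in 1 tissue. It was close to that of regions of the testicular portion only, which were silent in the testis as well.

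The poised share was lower for regions of the testis only and, in the testis, for those of the ovarian portion only. In the ovarian portion, regions of the testis only were poised over 75.8% of their bases and undefined over 22.4%. The shared testicular regions had the higher poised share on 16 of 16 scaffolds, by 11.5 to 18.4 percentage points. In the testicular portion, regions of the testis only were poised over 86.3%. In the opposite direction, regions of the ovarian portion only were poised over 88.6% in the testicular portion and 79.4% in the testis, and the latter was below the share of the shared testicular regions on 16 of 16 scaffolds too. The Polycomb state took 6.30% of their bases in the testis and 2.13% in the testicular portion. The 0.989% of Polycomb state that the shared testicular regions carried in the ovarian portion was lower than both. In that tissue, regions of the testicular portion only had 0.773% and those of the testis only 1.69%. Regions of the ovarian portion and the testis had 0.479% in the testicular portion, and those of both ovotestis parts 1.69% in the testis. Over the genome without scaffolds 15 and 18, this state covered 7.94% in the testis, 4.85% in the testicular portion and 4.99% in the ovarian portion. The regions of the ovarian portion only were also shorter, with a median of 800 bp.

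Within the shared testicular regions, the bases active in both tissues were those most often poised in the ovarian portion. The poised share was 95.1% over the 10.4 Mb active in both tissues. It was 90.7% over the 2.74 Mb active in the testicular portion alone and 84.4% over the 4.49 Mb active in the testis alone. The poised share of the ovarian portion also fell with distance from the region's centre. It was 95.5% at the centre, and 83.4% and 79.7% at 800 bp on the 2 sides. The part of position in the shares of these bases was not tested. Longer shared activity went with a similar poised share of bases but with fewer regions that were poised throughout. Regions with 200 to 400 bp active in both tissues (1576 regions) were poised over 91.0% of their bases, and those with 2200 to 8000 bp (821 regions) over 91.9%. All bases were poised in 83.1% of the former and 64.7% of the latter, with 80.4% and 74.3% in the classes of 600 to 1000 bp and 1200 to 2000 bp. Longer regions hold more bins that must all be poised, and the part of length in this fall was not tested. The poised stretches of the ovarian portion reached well beyond the regions. The poised segment that covered most of a region had a median length of 4000 bp and was a median of 2.3 times as long as the region. All poised segments of the ovarian portion had a median length of 1600 bp, but a longer segment is more likely to be met by any region.

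A minority of the shared testicular regions were not poised in the ovarian portion. In 362 regions (3.90% [3.53 to 4.32]) the undefined state covered at least 50% of bases and the poised state less than 50%, and 228 were undefined over their whole length. In 59 (0.636% [0.493 to 0.820]) the Polycomb state covered at least 50%, and 44 were in the Polycomb state over their whole length. Regions with an undefined majority had a median length of 1500 bp and a median of 800 bp active in both tissues. Those with a Polycomb majority had medians of 1800 bp and 1000 bp, and the fully poised regions 1600 bp and 1000 bp. The distance to the nearest active base of the ovarian portion had a median of 8200 bp for fully poised regions, 18800 bp for those with an undefined majority and 17200 bp for those with a Polycomb majority.

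The 5 regions with the most Polycomb bases in the ovarian portion were as follows. On scaffold 3 at 106322201 to 106328000, the Polycomb state covered 5400 of 5800 bp in the ovarian portion. All 5800 bp were active in the testis, but only 1200 bp in the testicular portion. On scaffold 9 at 37583001 to 37590600, it covered 4600 of 7600 bp, and 5200 bp were active in the testicular portion and 7600 bp in the testis. The region on scaffold 17 at 21311801 to 21315800 was in the Polycomb state over all 4000 bp and had 3400 active bp in each testicular tissue. On scaffold 2 at 60424201 to 60432400, 3800 of 8200 bp were Polycomb, with 2200 active bp in the testicular portion and 8200 in the testis. The region on scaffold 12 at 56285401 to 56289000 was Polycomb over all 3600 bp, with 2600 active bp in the testicular portion and 3600 in the testis. In 4 of these 5 regions the testis had the wider activity, and in the region on scaffold 17 both tissues had the same.

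Around the shared testicular regions, the poised state formed a single peak in the ovarian portion and a pair of shoulders in the testicular tissues. At the region's centre, 95.5% of 9115 regions with 10 kb of sequence on both sides were poised in the ovarian portion. The share fell below 50% at 2200 bp on one side and 1800 bp on the other. Positions are bins of 200 bp, and a region with an even number of bins has no central bin. Differences between the sides are therefore not interpreted, here or in the testicular tissues. In the testicular portion, 89.8% were active at the centre, and the poised share peaked 1200 bp away on each side, at 72.7% and 72.5%. In the testis, 93.8% were active at the centre, and the poised share peaked at 1400 bp on one side and 1200 bp on the other, at 69.1% and 69.5%. Much of this shape follows from the rule, which bars ovarian activity over the whole region and ends each region where the testicular activity ends. It is given as a description. Positions just beyond the regions are not free of it either, because an active ovarian segment that reached into a region excluded that region. The distance kept to promoter states also acts there. The median length was 1600 bp and the 95th percentile 4000 bp. In the ovarian portion, active states were found in 2.10% of regions at 2000 bp from the centre and in 7.24% at 5000 bp. These shares were 8.01% and 14.1% in the testicular portion, and 10.4% and 15.7% in the testis. At 2000 bp from the centre the poised state was found in 48.4% of regions in the ovarian portion, 60.8% in the testicular portion and 63.0% in the testis. At 10000 bp it was found in 35.7%, 38.6% and 39.5% in the same order, against 23.2%, 21.8% and 21.6% of the genome. Other distal regions were also flanked by more poised state than the genome held. Around regions active in all 3 tissues it was found in 43.0%, 40.4% and 41% at that distance, and around those of the testis only in 34.1%, 32.8% and 38.0%.

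**Figure D2:**
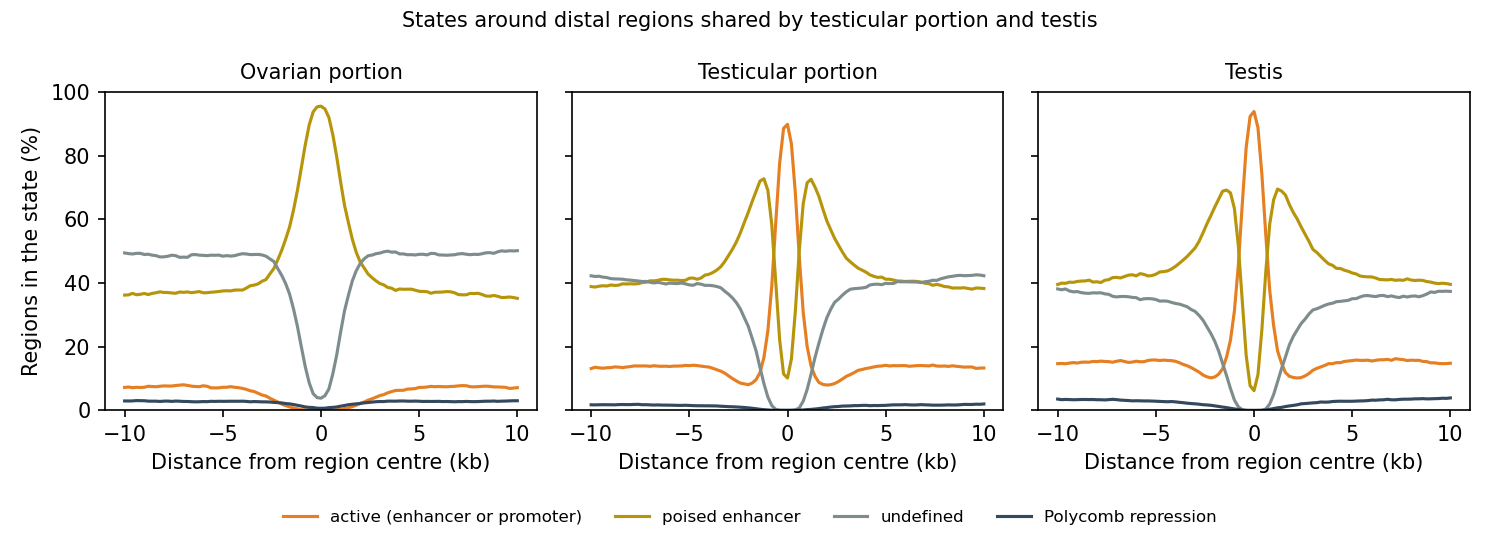
Lines give the percent of 9115 shared testicular regions in each state by distance from the region's centre in kb, with 1 panel per tissue. The poised state has 1 central peak of 95.5% in the ovarian portion and side peaks of 69.1% to 72.7% in the testicular portion and the testis.

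The distance from a shared testicular region to the nearest base of the ovarian portion in the active enhancer or promoter state had a median of 9600 bp, with a middle span from 3600 to 24000 bp. Of the 9276 regions, 17 adjoined an active ovarian segment, 400 (4.31%) lay within 1000 bp of one and 3090 (33.3%) within 5000 bp. Another 1073 (11.6%) had none within 50 kb, of which 92 were on scaffolds with no active ovarian base at all. Regions of the testicular portion only lay farther away, with a median of 12800 bp and 1638 (17.6%) beyond 50 kb. Those of the testis only had a median of 10400 bp and 1569 (14.8%) beyond 50 kb.

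The neighbourhoods of the shared testicular regions held more active chromatin than the genome in all 3 tissues, as did those of other distal regions. From 2 to 10 kb outside their edges, leaving out bases within 2 kb of any of them, the active states covered 7.83% of bases in the ovarian portion, 11.5% in the testicular portion and 12.7% in the testis. Over the genome without scaffolds 15 and 18 these were 4.35%, 5.71% and 6.04%. Around regions of the testis only they were 7.18%, 10.2% and 12.2%, and around those of the testicular portion only 5.51%, 8.96% and 8.07%. Around regions active in all 3 tissues they were 6.48%, 8.74% and 9.69%. Each kind was measured outside its own regions, so these shares do not rank the kinds. Without that exclusion, at 10000 bp from the centre, active states were found in 7.17%, 13.2% and 14.7% of the shared testicular regions. For regions active in all 3 tissues these shares were higher, at 12.5%, 16.4% and 17.6%. In the neighbourhoods of the shared testicular regions, the share in the testicular portion was 1.47 times that in the ovarian portion. The range was 1.23 to 1.83 over scaffolds, against 1.31 times over the genome. This ratio exceeded that of the whole scaffold on 16 of 16 scaffolds. For the testis the ratio was 1.62, from 1.38 to 1.94, against 1.39 over the genome, and it too was above the whole scaffold on 16 of 16. Around regions active in all 3 tissues, measured in the same way outside regions of that kind, the ratios were 1.35 and 1.49, and the shared testicular regions had the higher ratio on 15 and 14 of 16 scaffolds. Around regions of a single testicular tissue, the ratio for that tissue was higher still, at 1.63 for the testicular portion and 1.71 for the testis. The Polycomb state covered 2.93% of the neighbourhoods in the ovarian portion, 1.92% in the testicular portion and 3.66% in the testis, each below its share of the genome of 4.99%, 4.85% and 7.94%. Around regions active in all 3 tissues it was below these as well, at 2.34%, 2.47% and 4.66%.

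Distal regions of the same kind also tended to be neighbours. For 2083 of 9207 shared testicular regions with another distal region on their scaffold (22.6%), the nearest distal region was itself shared and testicular, which is 1.53 times their 14.8% share of all regions. This share ranged from 17.6% to 26.1% over scaffolds. For a further 20.1% the nearest region was active in the testis only, for 14.7% in the testicular portion only, and for 30.6% in all 3 tissues. It was active in the ovarian portion only for 5.62%, although such regions made up 12% of all. Each of the 7 kinds was nearest to its own kind more often than its overall share, from 1.26 times for regions active in all 3 tissues to 2.51 times for those of the ovarian portion and the testis. The shared testicular regions thus had the smallest such excess but one.

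The shared testicular regions were spread over all the large scaffolds. Their density ranged from 4.06 per Mb on scaffold 17 to 5.78 per Mb on scaffold 16, with a median of 4.76. As a share of all distal regions they made up between 12.2% on scaffold 17 [10.8 to 13.7] and 16.5% on scaffold 1 [15.4 to 17.7]. They outnumbered both the regions active in the parts of the ovotestis without the testis (4495) and those of the ovarian portion and the testis (2488) on 16 of 16 scaffolds. The ovarian portion had the least active state, which by itself leaves more regions inactive there, and its part in these counts was not tested. On scaffold 17 the active coverage of the ovarian portion (6.67%) was nearest to that of the testicular portion (7.09%), and on scaffold 1 the values were 2.86% and 4.24%. Scaffold 19, of 3.78 Mb, had 10 distal regions and none of the shared testicular kind. Another 207 regions lay on 179 scaffolds under 1 Mb.

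**Figure D3:**
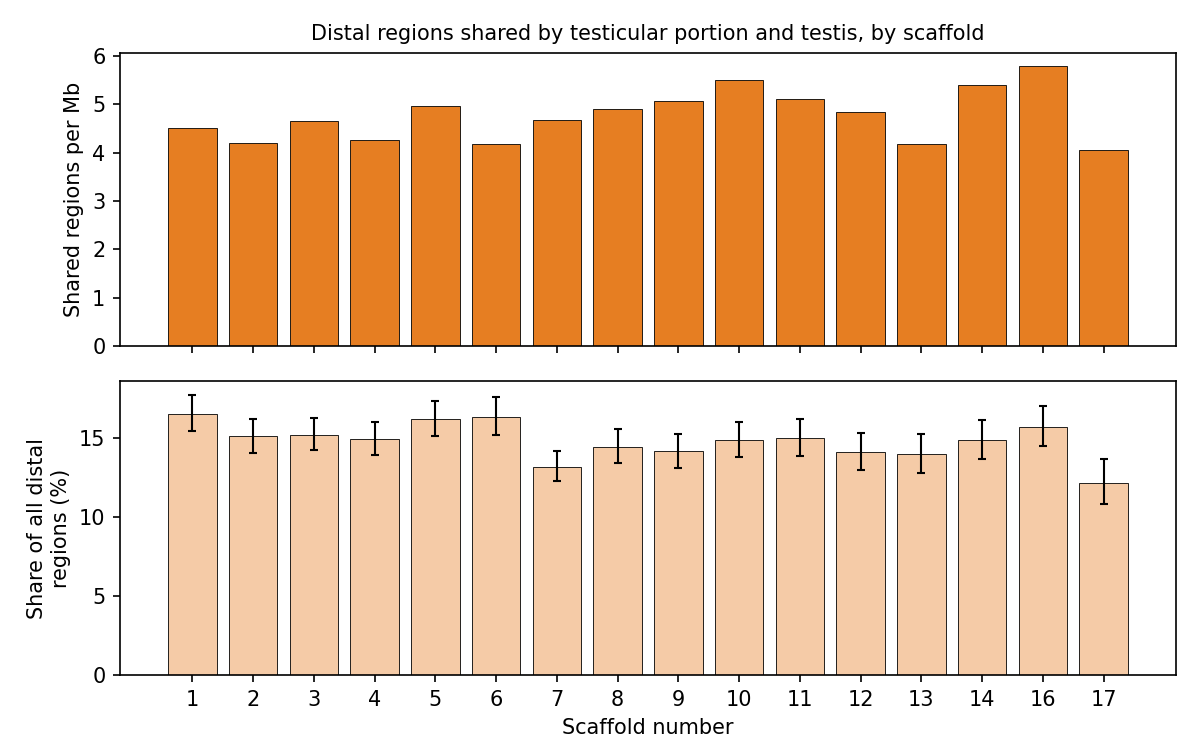
Bars give, for 16 scaffolds of at least 1 Mb, the shared testicular regions per Mb (upper panel) and as percent of all distal regions (lower panel, with 95% Wilson intervals). Density runs from 4.06 per Mb on scaffold 17 to 5.78 on scaffold 16, and the share from 12.2% on scaffold 17 to 16.5% on scaffold 1.

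Most shared testicular regions stood alone. Neighbouring ones lay a median of 65400 bp apart. When those with gaps of at most 10 kb were joined, 7795 clusters were formed, of which 6642 (85.2%) held 1 region, 917 held 2 and 236 held 3 or more. In all, 2634 regions (28.4%) had another within 10 kb, against 48.0% of the regions active in all 3 tissues, 23.5% of those of the testicular portion only, 30.9% of those of the testis only and 14.3% of those of both ovotestis parts. More numerous kinds lie closer together by number alone, so these shares describe spacing only. Of the 236 clusters, 185 held no active ovarian base anywhere in their span, and 17 had none within 50 kb either.

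The cluster with the most regions lay on scaffold 8 at 3024601 to 3073400 and held 8 in 48.8 kb. The active states covered 45.9% of this span in the testicular portion, 49.6% in the testis and 1.64% in the ovarian portion. The regions began at 3024601, 3029401, 3038201, 3041001, 3051201, 3059401, 3065601 and 3070601 and were between 1600 and 3600 bp long. Each held from 1400 to 3200 active bp in the testicular portion and from 1600 to 3400 in the testis. In the ovarian portion, 61.7% of their bases were poised, below the 91.7% of all shared testicular regions, and the other 38.3% were undefined. Those at 3041001 and 3070601 were undefined over their whole length there, while those at 3029401, 3051201 and 3059401 were poised throughout. The nearest promoter or bivalent promoter segment of any tissue lay 39800 bp outside the span.

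**Figure D4:**
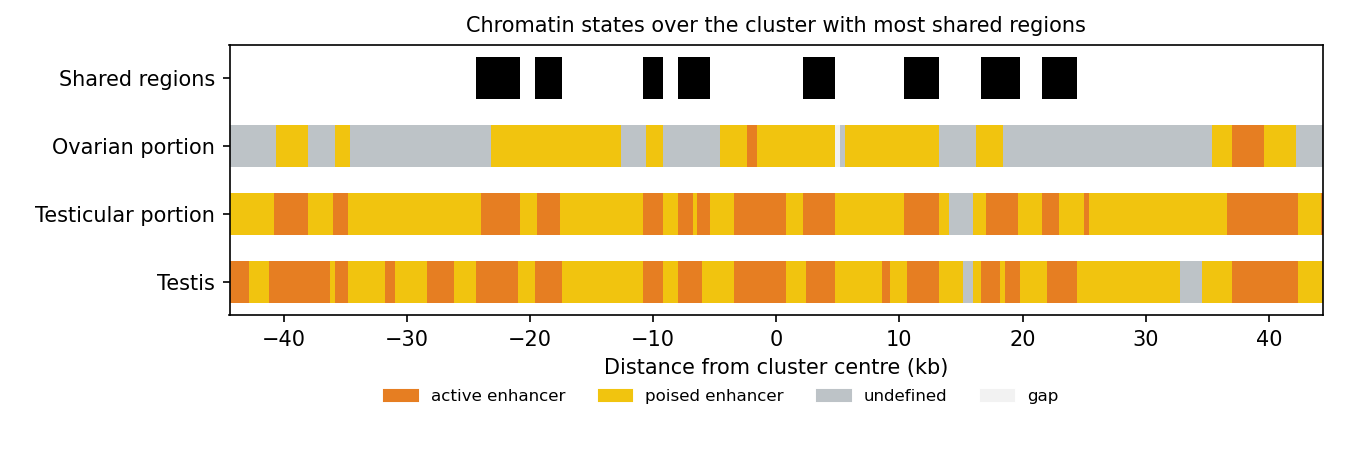
The map gives the chromatin state of each tissue by distance from the centre of the cluster with most shared testicular regions, in kb, with its 8 regions as black blocks in the top row. Active enhancer segments lie under every block in the testicular portion and the testis, and under none in the ovarian portion, where the states are poised or undefined.

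The next cluster by number lay on scaffold 10 at 40307801 to 40356200, with 7 regions in 48.4 kb. Here the Polycomb state covered 32.2% of the span in the ovarian portion and none of it in either testicular tissue. The active states covered 43.0% in the testicular portion, 46.7% in the testis and 2.48% in the ovarian portion. The regions at 40321201 and 40329001 were in the Polycomb state over all 1400 and 2200 bp in the ovarian portion, and the one at 40334801 over 600 of 1400 bp. The last, at 40348401 to 40356200, was among the 10 with the most shared activity, with 6800 bp active in both tissues. Another of those 10 lay on the same scaffold at 40238001 to 40245200, with 6400 bp active in both tissues and all 7200 bp poised in the ovarian portion.

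The 3 other clusters among the 5 with most regions held 6 each and spanned no other distal region. On scaffold 14 at 73742401 to 73778000, where a segment in a promoter state lay between the regions, the active states covered 46.6% of the span in the testicular portion, 38.2% in the testis and none in the ovarian portion. There the Polycomb state took 15.7% of the span in the ovarian portion, and the region at 73757001 carried 2200 bp of it. On scaffold 9 at 84129601 to 84156200, the active states covered 31.6% in the testicular portion and 40.6% in the testis, and the nearest active ovarian base lay 91800 bp away. On scaffold 16 at 55749201 to 55791400, they covered 27% in the testicular portion and 18% in the testis, with an active ovarian base 1800 bp outside the span. The testicular portion was the more active in 2 of these 3 and the testis in the other.

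Of the 17 clusters far from ovarian activity, the 5 with the most bases active in both tissues included the one on scaffold 9. The first lay on scaffold 3 at 93607401 to 93631400, where 3 regions had 7600 bp active in both tissues and the nearest active ovarian base was 91800 bp away. Its middle region, at 93616201 to 93620600, had 4400 active bp in the testicular portion and 4200 in the testis and was poised over all 4400 bp in the ovarian portion. The cluster on scaffold 1 at 49444601 to 49463000 had 6400 bp active in both tissues and lay 135400 bp from ovarian activity and 149600 bp from the nearest promoter state. On scaffold 2, clusters at 113530801 to 113548200 and at 136506801 to 136528000 had 5800 and 4600 bp active in both tissues. The nearest promoter or bivalent promoter segment to the former was 419200 bp away. In all 5, between 73.3% and 95.1% of the regions' bases were poised in the ovarian portion, and the Polycomb state covered none of them.

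Windows of 1 Mb held a median of 4 shared testicular regions, and 281 of 1910 held none. The window with the most, singled out after its value had been seen, lay on scaffold 2 at 113000001 to 114000000. Of its 85 distal regions 33 (38.8%) were shared and testicular, and it contains the cluster at 113530801. The next were on scaffold 10 at 101000001 to 102000000 (28 of 93) and on scaffold 9 at 65000001 to 66000000 (28 of 87).

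The 10 regions with the most bases active in both tissues held 6200 to 8000 such bp, between 59.6% and 100% of their length. The first, on scaffold 8 at 103833001 to 103842400, had 8000 active bp in the testicular portion and 9400 in the testis. It was poised over only 3400 of 9400 bp in the ovarian portion and undefined over the remainder. The next, on scaffold 8 at 50878401 to 50885800, was active over the same 7400 bp in both tissues and poised over all of them in the ovarian portion. On scaffold 3 at 93134401 to 93143600, 8000 bp were active in each tissue and 6800 bp in both, and all 9200 bp were poised in the ovarian portion. On scaffold 7 at 115094201 to 115102800, on scaffold 10 at 27207201 to 27215600 and on scaffold 8 at 30207601 to 30215800, 6800 bp were active in both. All bases of these 3 were poised in the ovarian portion. On scaffold 11 at 28174201 to 28181800, 7600 bp were active in the testicular portion and 6600 in the testis, and all 7600 bp were poised in the ovarian portion. The tenth, on scaffold 2 at 97210001 to 97220400, had 6400 active bp in the testicular portion, 10200 in the testis and 6200 in both. None of the 10 carried Polycomb state in the ovarian portion.

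The last comparison described the ovarian state of promoter and bivalent promoter segments near the shared testicular regions. The rule used only the distance to promoter states and not their state in each tissue. The nearest promoter or bivalent promoter segment of a testicular tissue lay a median of 46200 bp away, with a middle span from 18000 to 107200 bp. In regions active in all 3 tissues the median was 34200 bp. A segment of this kind was on the scaffold of 9112 shared testicular regions. For 5788 of them (63.5% [62.5 to 64.5]), the nearest segment had promoter-state bases in the ovarian portion. The nearest segment had bivalent but no promoter bases there for 9.31%, and active enhancer bases but neither of these for 1089. Otherwise it was mainly poised in the ovarian portion for 6.95% of the 9112 and mainly Polycomb for 5.21%. The corresponding share in promoter state was 69.5% [68.8 to 70.2] for regions active in all 3 tissues. For regions of the testicular portion only it was 64.1% [63.1 to 65.0], for those of the testis only 63.5% [62.6 to 64.5] and for those of the ovarian portion only 64.4% [63.3 to 65.5]. The intervals of the regions of a single tissue overlapped that of the shared testicular regions. The 9112 regions had 4718 distinct nearest segments, and 18624 regions active in all 3 tissues had 7825. Segments were thus counted more than once, which the intervals do not cover. A nearest segment could be bivalent in the testicular tissues, and its state there was not kept apart. These shares therefore do not show a difference between tissues.

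Seen from the promoters, the shared testicular regions were nearer to those that lacked promoter state in the ovarian portion. Of 12224 promoter segments of at least 400 bp in the testicular portion with promoter bases in the testis, 420 (3.44%) had no promoter base in the ovarian portion. A shared testicular region was the nearest distal region for 80 of these 420 (19.0% [15.6 to 23.1]). It was the nearest for 1488 of the 11804 promoter segments with promoter bases in all 3 tissues (12.6% [12 to 13.2]). It was the nearest for 152 of 1799 promoter segments of the ovarian portion that had no promoter base in either testicular tissue (8.45% [7.25 to 9.82]). The share was higher for the 420 than for the promoters of all 3 tissues on 13 of 16 scaffolds. Each of these scaffolds held 14 to 51 of the 420, and 1 to 8 of those had a shared testicular region nearest. The share on a single scaffold thus rests on few segments. With distal regions kept more than 5 kb from promoter states, the shares were 16.2% [13 to 20.1] and 12.9% [12.3 to 13.5], the difference fell from 6.44 to 3.31 percentage points and the intervals overlapped. A shared testicular region lay within 50 kb of 221 of the 420 (52.6% [47.8 to 57.3]) and of 4150 of the 11804 (35.2% [34.3 to 36.0]), and the former share was the higher on 15 of 16 scaffolds. The exception was scaffold 2, which held the most of the 420 (51), with 23.5% against 28.7%. The median distance to a shared testicular region was 45600 bp from the 420 and 85600 bp from the 11804. The share within 50 kb and the median distance were measured for the shared testicular regions alone. Whether other kinds of region differ alike in these was not tested. Among the other kinds active in a testicular tissue, 3 were also nearest more often for the 420 than for the promoters of all 3 tissues, with 20.2% against 16.9% for regions of the testis only, 12.6% against 10.3% for those of the testicular portion only and 36.9% against 32.8% for those active in all 3 tissues. Those that were also active in the ovarian portion but in a single testicular tissue were nearest less often, with 3.57% against 6.81% for both parts of the ovotestis and 1.90% against 5.96% for the ovarian portion and the testis. Regions of the ovarian portion only were nearest for 5.71% of the 420, 14.7% of the promoters of all 3 tissues and 22.6% of the promoters of the ovarian portion.

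**Figure D5:**
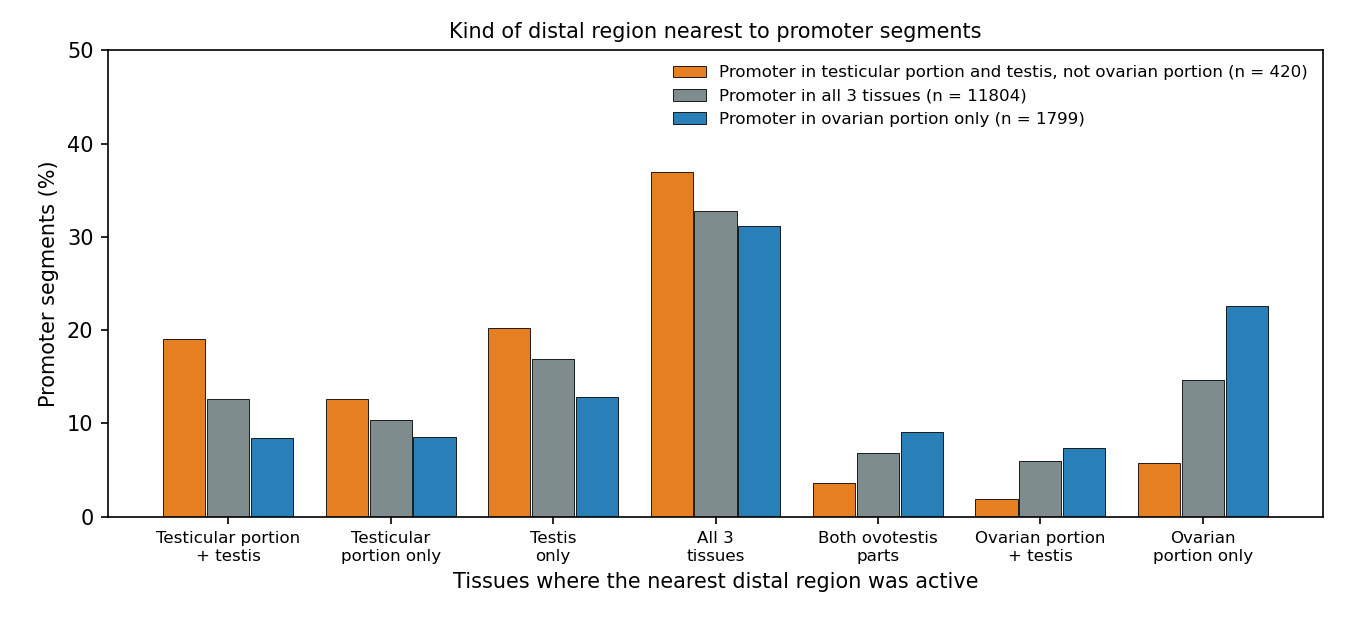
Bars give the percent of promoter segments whose nearest distal region was active in the tissues named on the x axis, for promoters of the testicular portion and testis without promoter bases in the ovarian portion (n = 420), of all 3 tissues (n = 11804) and of the ovarian portion alone (n = 1799). A shared testicular region was nearest for 19.0%, 12.6% and 8.45% of them.

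The 420 had a median length of 400 bp, against 600 bp for those of all 3 tissues. The main state of their bases in the ovarian portion was active enhancer for 171, poised enhancer for 137, undefined for 51, Polycomb for 25, bivalent promoter for 21 and gap for 15. Promoters and distal regions were called in the same ovarian segmentation, so these counts are not independent of each other, and the part of this in the difference was not tested.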

How the data were processed

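Chromatin immunoprecipitation of H3K4me3, H3K4me1, H3K27ac and H3K27me3 was done on 24 mole libraries, 8 per tissue. The authors deposited 1 table per tissue that gives 1 of 7 named states (another kind of value than a count or a score) to each stretch of the talOcc4 assembly in bins of 200 bp, per the file contents. An aligner, STAR 2.6.1d, and a mouse build, mm9, are named per the submitters' processing notes. For the mole tables, the segmentation tool, the definition of each state and the read depth are not stated in those sources.

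The tables were read into 200 bp bins with Python 3.11.15 and numpy 2.4.6. Active means the promoter or active enhancer state. The region finder was tested on simulated segmentations with planted regions. The regions, lists and limits were chosen with earlier results of these data known. Single regions are named as the 10 with most bases active in both testicular tissues, the 5 with most ovarian Polycomb bases, the 5 clusters with most regions, and the 5 clusters of at least 3 regions with most shared activity and no ovarian activity within 50 kb. Clusters join gaps of at most 10 kb. Coordinates count from 1. The comparison of promoter segments was added after the data had been seen. The mouse segmentations and the talOcc3 gene models were not used here.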

Additional observations from a re-analysis of the deposited data

How the results depend on the processing

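Results were recomputed with 13 other settings of segment length, promoter distance, scaffolds, merging and the activity rule, of which 2 were chosen after seeing the data. One of the settings, activity from the active enhancer state alone, could change nothing, because the rule leaves no promoter base in the regions. The number of shared testicular regions lay between 8062 (segments of at least 1000 bp) and 9455 (more than 1 kb from promoter states), against 9276. With segments of at least 1000 bp, 7820 of the 8062 were identical to regions of the 9276, and with segments within 1 kb merged 7866 of 8515 were. The poised share in the ovarian portion stayed between 91.3% and 91.7%, except for 90.5% when segments within 1 kb were merged. The share of regions whose nearest promoter or bivalent promoter segment had promoter-state bases in the ovarian portion lay between 63.2% and 63.7%. The ratio of the highest to the lowest density over scaffolds was 1.43. It was 107 when scaffolds 15 and 18 were kept, because scaffold 18 then had the lowest density, and between 1.41 and 1.56 otherwise. The 19.0% of promoters without ovarian promoter bases that had a shared testicular region nearest lay between 16.2% and 21.2% under the same settings, against 11.8% to 14.4% of promoters of all 3 tissues. The former was higher under 16 of 16 settings, promoter lengths included, with intervals that did not overlap under 15. The exception was a distance of more than 5 kb from promoter states (16.2% against 12.9%). With promoter segments of at least 600 bp the share for promoters without ovarian promoter bases was 23.9% (48 of 201). With at least 1000 bp it was 25.5% (14 of 55), with fewer segments compared. The 16 settings recut the same segmentations and include the 1 that could change nothing. The counts of settings and the intervals, which cover counting only, are therefore a description and not a test. No paired analysis was possible because each tissue has 1 segmentation and its replicates have none of their own. Leaving out a replicate was not possible for the same reason, and the depth that limits the calls is unknown.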

Other observations

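On the scaffolds left out by the rule, some regions met its other conditions. Scaffold 15, of 88.9 Mb, held 421 distal regions, of which 70 (16.6%, Wilson interval 13.4 to 20.5) were active in the testicular portion and the testis and had no active base in the ovarian portion. Their density was 0.787 per Mb, against 4.06 to 5.78 on the 16 other large scaffolds. Of their bases in the ovarian portion, 54.1% were in the Polycomb state and 45.5% poised. The Polycomb state covered 71.8% of all bases of scaffold 15 that were neither active nor bivalent in the ovarian portion, and the poised state 2.90%. The Polycomb share of these 70 regions was therefore below that of their scaffold and the poised share above it. On the other scaffolds the regions had 0.989% Polycomb and 91.7% poised, against 5.26% and 24.4% of such bases. Scaffold 18, of 18.4 Mb, held 26 distal regions, of which 21 were active in the testis only and 1 in both testicular tissues. That 1 region was in the Polycomb state over its whole length in the ovarian portion. That state covered 43.3% of the bases of scaffold 18 that were neither active nor bivalent there.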
